A study of Mus musculus with 16 samples.

Results

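RNA levels of 38 genes of the autophagy machinery and its cargo receptors were followed in cultured mouse brain microvascular endothelial cells (mBMEC). The genes were chosen by name: 5 of the ULK1 initiation complex, 6 of the class III PI3-kinase complex, 5 of lipid transfer, ATG9 traffic and PI3P binding, 10 enzymes and partners of the conjugation systems, 5 LC3 and GABARAP proteins and 7 cargo receptors. They are 38 of the 54193 genes to which the transcripts of the 16 libraries were summed. In each library, reads are polyA RNA and are not stranded.

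The mice were Cdh5(PAC)-CreERT2/Pdcd10 fl/fl, aged 8 to 10 weeks, in whose brain endothelium a floxed Pdcd10 gene (Ccm3) can be removed by a Cre that is driven by the endothelial Cdh5 promoter. KO cultures received 4-OH-tamoxifen (4-OHT) and WT cultures did not, so effects of 4-OHT and of genotype cannot be told apart. Brains were pooled for each culture, and all cultures, WT included, went through puromycin selection. Cells were left untreated or given 10 µM propranolol (P), a beta-blocker, or 100 nM rapamycin (R), an inhibitor of mTOR complex 1, for 24 h. The groups were WT (n = 3), WT+P (n = 2), WT+R (n = 2), KO (n = 3), KO+P (n = 3) and KO+R (n = 3), and the labels call the libraries of a group biological replicates.

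Macroautophagy encloses cytoplasm in a double membrane, the autophagosome, which fuses with lysosomes. The ULK1 kinase complex starts the process and is held in check by mTOR complex 1, the class III PI3-kinase makes the lipid PI3P at the growing membrane, and ATG2 and ATG9 supply lipid. A pair of ubiquitin-like systems then fixes LC3 and GABARAP proteins to the membrane, where they bind the receptors that bring in cargo. Activity of the pathway is set largely on proteins, and only RNA was measured here. In brain endothelium, defective autophagy has been linked to cerebral cavernous malformations, the vascular lesions that loss of CCM genes causes.

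Library depth was 18.83 to 26.2 M counts. All 12 endothelial markers were detected, and the cell type in the labels matched them, with summed levels of 12096 to 16046 normalised counts (CPM, counts scaled to equal library size) in WT, 12433 to 13881 CPM in KO, 10682 to 11311 CPM in WT+R and 11958 to 13185 CPM in KO+R. With propranolol the sum was 8010 to 11654 CPM in WT+P and 8559 to 12150 CPM in KO+P. Markers of other brain cells were low, with sums of at most 17.1 CPM for mural cells, 2.22 CPM for microglia and 2.08 CPM for neurons and oligodendrocytes. Fibroblast markers ranged from 2.64 to 186 CPM with Lum under 1 CPM, and astrocyte markers from 32.6 to 110 CPM with Gfap, Aqp4 and Slc1a2 under 1 CPM. Pdcd10 was at 9.72, 11 and 9.73 CPM in KO and at 11.5, 31.2 and 47 CPM in WT. The library labelled WT replicate 1 thus had Pdcd10 at the KO level, and calls that were gained or lost without it are named beside the results. In replicate 1 of WT+P and WT+R, Pdcd10 was at 60.8 and 52 CPM. Same-number differences and counts of pairs include WT replicate 1 and were not repeated without it. In bulk RNA, fewer cells of a type and less RNA per cell cannot be told apart.

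All 38 genes were expressed, with at least 155 counts in every library, and all of them entered the tests. Levels of different genes were compared as TPM, which scale the counts of a library for transcript length and depth. Sqstm1, which encodes the ubiquitin-binding receptor p62, had the highest level, with a median of 1551 TPM over the 16 libraries and a range of 1196 to 6571 TPM. The LC3 and GABARAP genes followed, with medians of 645 TPM for Gabarap, 328 TPM for Gabarapl1, 318 TPM for Map1lc3b, 197 TPM for Gabarapl2 and 154 TPM for Map1lc3a. Becn1, the regulatory subunit of the PI3-kinase complex, stood among them at 180 TPM. These 7 genes and Bnip3l, a mitophagy receptor at 137 TPM, were the only members with a median above 100 TPM.

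In the ULK1 complex, medians were 84.8 TPM for Atg101, 43.3 TPM for the scaffold Rb1cc1, 35.9 TPM for Atg13 and 25.6 and 19.9 TPM for the kinases Ulk1 and Ulk2. Conjugation genes lay between 7.24 TPM for the protease Atg4c and 39.2 TPM for the E2-like enzyme Atg3. Atg14 at 9.8 TPM and Ambra1 at 10.7 TPM were the lowest of the PI3-kinase complex. Neighbours in this order had ranges without overlap in 3 places: Sqstm1 above Gabarap (550 to 894 TPM), Gabarap above Gabarapl1 (262 to 454 TPM) and Map1lc3b (263 to 412 TPM) above Gabarapl2 (158 to 227 TPM). All other neighbours overlapped.

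**Figure D1:**
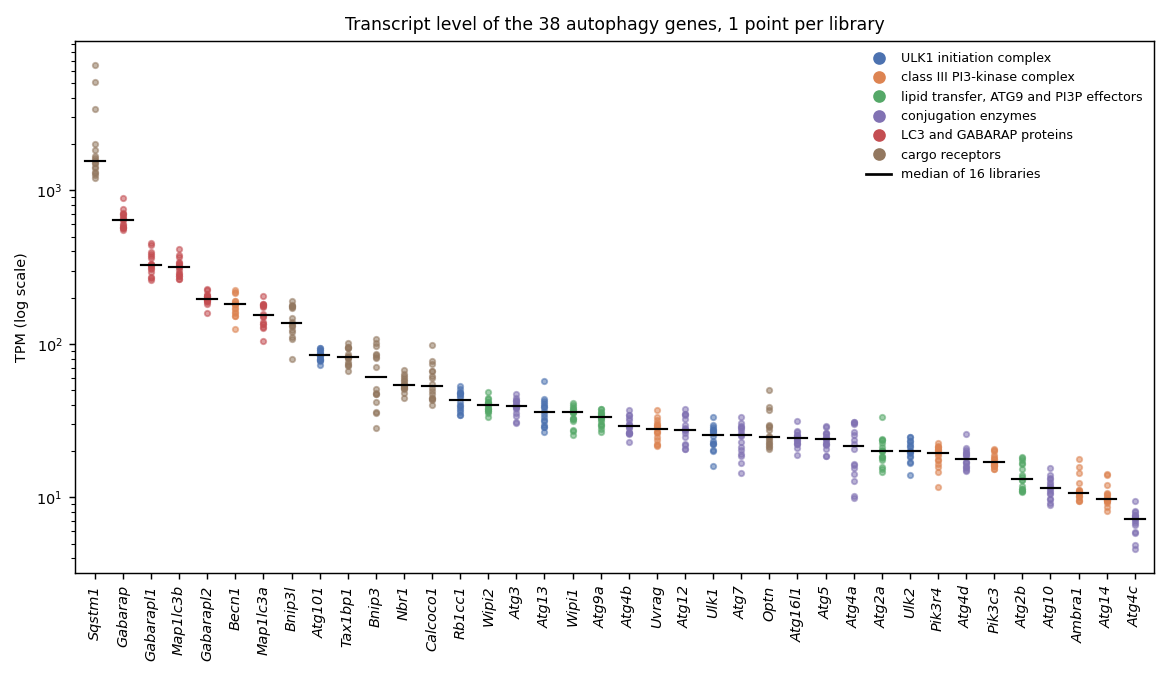
Levels of the 38 genes in TPM on a log axis, ordered by median, with 1 point per library (n = 16) coloured by the gene's role and a line at each gene's median. Sqstm1 is highest with a median of 1551 TPM and Atg4c is lowest with 7.24 TPM.

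Not all of these counts came from transcripts that code for the full protein. On average 43.79% of the Becn1 counts was assigned to an isoform annotated as a target of nonsense-mediated decay and 20.03% to the coding isoform Becn1-205, and 64.38% of Atg4d was assigned to a transcript with a retained intron. By contrast, 97.88% of Calcoco1, 98.6% of Atg13 and 89.5% of Map1lc3a was assigned to 1 coding isoform each. Since the libraries were not stranded, reads of overlapping genes are uncertain. Overlap with exons of other genes covered 43.8% of Becn1, 37.8% of Atg9a, 37.1% of Atg4d, 33.1% of Atg13 (mainly Arhgap1, on the other strand), 31.0% of Gabarapl1 and 18.9% of Sqstm1, and none of Calcoco1, Map1lc3a, Atg2a or Atg7. These shares are of all exons of a gene. Of the main transcript of Atg13, 55.2% matched Arhgap1 at 100% identity. Atg4a is uncertain for another reason, as 94.9% of its main transcript matched Atg4a-ps at 99.3% identity.

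Two-sided tests across 14838 genes asked how each drug and the genotype moved these RNAs. Every adjusted p given here is from edgeR's quasi-likelihood test with Benjamini-Hochberg adjustment over all 14838 genes, a gene was called when it was under 0.05, and folds are log2 fold changes with their standard error (SE). A second fit had the replicate number as a block, since libraries with the same number deviated together. Comparisons of 1 genotype share their untreated libraries, and comparisons of the genotypes share WT or KO libraries with them, so their values are only set side by side.

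With rapamycin 7 of these genes were called, against 8.22% of all genes, with propranolol 1, against 1.83%, and between genotypes 1, against 2.67%. Over both genotypes, 6 of the 38 genes rose and 1 fell, against 4.04 and 4.18% of all genes, so that 18.4% of the members and 8.22% of all genes were called. A fold above 1.5 was passed by 2 of them, Map1lc3a and Calcoco1 (5.26%), against 5.29% of all genes. With the replicate block 13 rose and 2 fell, against 8.76 and 10.1% of all genes, in all 39.5% of the members and 18.9% of all genes. The median member was 0.17 higher on the log2 scale and 30 of 38 values were above 0, where the median of all genes was -0.02. By role, the median was 0.34 for the cargo receptors, 0.34 for LC3 and GABARAP, 0.30 for the ULK1 complex, 0.09 for the PI3-kinase complex, 0.05 for lipid transfer and -0.06 for the conjugation enzymes. In every same-number pair of treated and untreated cultures (5 pairs), 19 genes were higher (50%), against 18.5% of all genes, and 3 were lower (7.89%), against 22.9% of all genes. The pair of WT replicate 1, with its low Pdcd10, is among them.

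**Figure D2:**
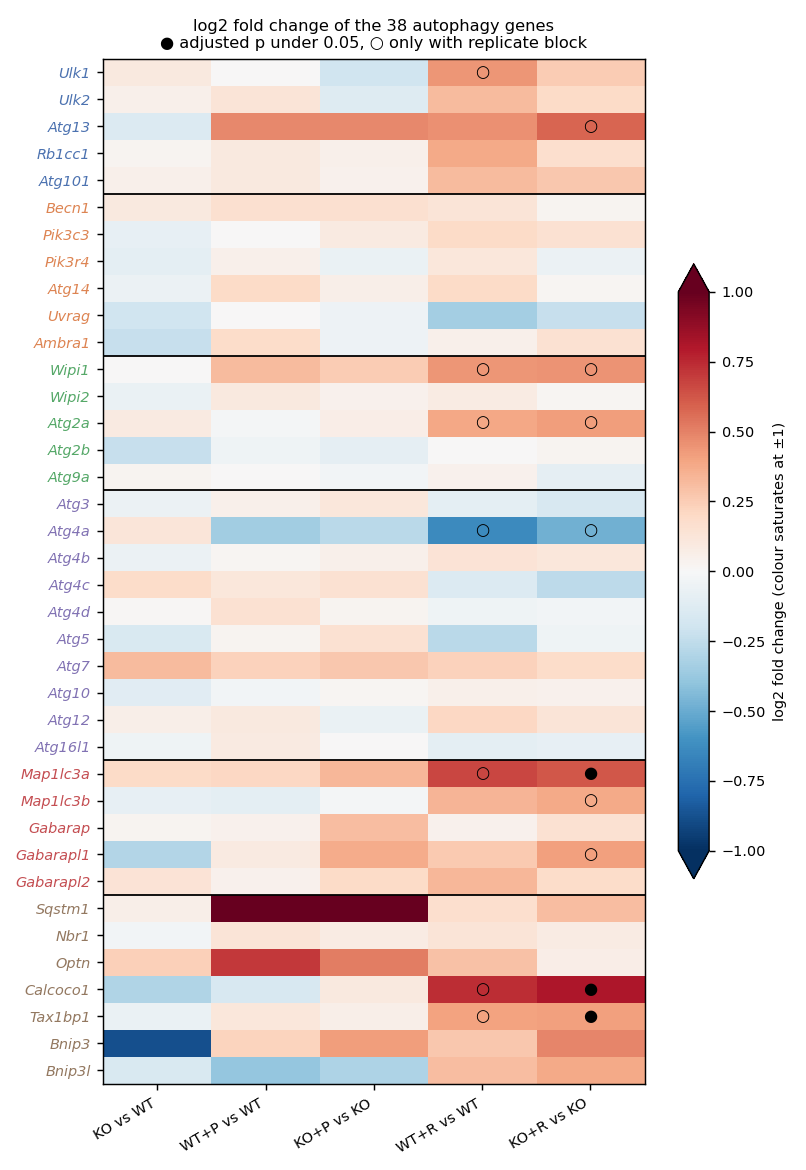
Log2 fold changes of the 38 genes in 5 comparisons, with filled circles for genes called without the replicate block and open circles for genes called only with it. Of the members, 3 were called without the block for KO+R against KO, and 0 in the other 4 comparisons.

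Calcoco1, Map1lc3a, Tax1bp1 and Wipi1 had an adjusted p under 0.05 with rapamycin over both genotypes in each of 23 other fits, although Tax1bp1 and Wipi1 were not called where a fold above 1.5 was also required. Their promoter windows, and that of Sqstm1, the gene with the largest fold change with propranolol, are printed because drug-responsive transcription factors are usually sought there. Each is the 250 bases before the annotated start of the main transcript, 5′ to 3′ on the gene's strand, read from the GRCm39 genome. The windows are chr15:102630614-102630863 on the minus strand for Calcoco1, chr2:155117967-155118216 on the plus strand for Map1lc3a, chr6:52690426-52690675 on the plus strand for Tax1bp1, chr11:109502278-109502527 on the minus strand for Wipi1 and chr11:50102886-50103135 on the minus strand for Sqstm1. Capitals mark a match to any of the 5 motifs searched.
Calcoco1: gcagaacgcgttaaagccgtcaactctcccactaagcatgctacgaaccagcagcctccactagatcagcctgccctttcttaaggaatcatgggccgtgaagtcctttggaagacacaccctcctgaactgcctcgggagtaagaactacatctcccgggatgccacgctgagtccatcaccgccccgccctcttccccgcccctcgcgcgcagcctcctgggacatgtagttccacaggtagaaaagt
Map1lc3a: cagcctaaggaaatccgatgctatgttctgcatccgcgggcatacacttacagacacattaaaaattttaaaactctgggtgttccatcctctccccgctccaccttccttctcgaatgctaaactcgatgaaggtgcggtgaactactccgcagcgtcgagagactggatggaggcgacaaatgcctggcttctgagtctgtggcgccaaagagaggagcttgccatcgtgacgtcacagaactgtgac
Tax1bp1: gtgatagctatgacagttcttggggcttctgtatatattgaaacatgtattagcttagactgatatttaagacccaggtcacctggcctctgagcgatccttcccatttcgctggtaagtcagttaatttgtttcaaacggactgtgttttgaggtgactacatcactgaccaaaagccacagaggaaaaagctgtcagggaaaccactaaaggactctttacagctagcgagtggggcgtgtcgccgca
Wipi1: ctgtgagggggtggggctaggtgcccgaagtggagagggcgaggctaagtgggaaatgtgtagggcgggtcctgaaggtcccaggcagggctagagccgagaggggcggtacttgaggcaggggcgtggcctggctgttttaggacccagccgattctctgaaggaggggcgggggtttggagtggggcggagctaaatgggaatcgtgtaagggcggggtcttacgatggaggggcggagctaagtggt
Sqstm1: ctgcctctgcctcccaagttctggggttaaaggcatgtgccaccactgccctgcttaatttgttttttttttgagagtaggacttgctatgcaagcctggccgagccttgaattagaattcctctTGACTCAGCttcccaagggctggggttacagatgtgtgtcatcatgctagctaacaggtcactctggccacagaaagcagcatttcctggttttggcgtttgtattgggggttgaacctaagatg

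The motifs were searched on both strands. CACGTG, the CLEAR E-box read by TFEB and TFE3, stood in 2 of the 38 member windows (5.26%), against 6.84% of 17452 promoters of the same length. TGATGNAA, read by ATF4, stood in 0 member windows, against 2.5% of all. The antioxidant response element TGACNNNGC, read by NRF2, stood in 2 (5.26%), Sqstm1 at 125 bases before the start and Bnip3l at 104, against 10.4% of all. GTAAACA, read by FOXO factors, stood in 1 (2.63%), against 2.57%. The hypoxia response element, searched as TACGTG or GACGTG, stood in 9 (23.7%), against 8.64%. Among the 15 genes called with rapamycin under the block, Atg101 and Uvrag held any of these motifs, both the hypoxia response element. Of all 38 members 12 held any, and the share of all promoters with any of them was not counted. No 2 matches in a member window overlapped, and a window without a match says only that these letters are not in it. The window of Tax1bp1 lay wholly within an exon of Gm43966, and 172 bases of that of Map1lc3a within an exon of Gm75512. The windows of Sqstm1 and Wipi1 lay inside the annotated span of their own gene. Those spans begin further upstream, at chr11:50107684 and chr11:109502793, and bases before these starts were not searched.

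All 5 genes of the ULK1 complex rose with the replicate block, and 1 rose without it. Atg13, the regulatory subunit that binds ULK1 (chr2:91502602-91541186, minus strand), was at 70.1, 61.8 and 69.8 CPM in WT, 98.9 and 86.1 CPM in WT+R, 59.7, 61 and 62.3 CPM in KO and 94.5, 88 and 91.1 CPM in KO+R. All 5 rapamycin libraries were above all 6 untreated ones. Over both genotypes Atg13 rose by 0.52 (SE 0.13, adjusted p = 0.0269), a 1.43-fold rise, with 33.1% of its exonic sequence overlapping Arhgap1 and Harbi1. Of its main transcript, 55.2% matched Arhgap1. The other members of the complex were called only with the block: Ulk1 rose by 0.39 (adjusted p = 0.0147 with the block, 0.106 without), Atg101, which stabilises ATG13, by 0.28 (0.0163 and 0.054), Ulk2 by 0.25 (0.0195 and 0.0687) and Rb1cc1 by 0.27 (0.0465 and 0.0888). Blocked and without WT replicate 1, Rb1cc1 was not called (0.29, adjusted p = 0.0737) and the other 4 were.

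In the PI3-kinase complex 1 of 6 genes was called. Uvrag, the subunit that marks the endosomal form of the complex (chr7:98533079-98790496, minus strand), was at 77.8, 79.1 and 98.6 CPM in WT, 66 and 68.9 CPM in WT+R, 72.7, 73.4 and 75.7 CPM in KO and 59.3, 68.3 and 61.6 CPM in KO+R. Its treated and untreated levels did not overlap in either genotype. Uvrag fell by 0.28 over both genotypes (SE 0.08, adjusted p = 0.0379). The catalytic subunit Pik3c3 had a log2 fold change of 0.17 (adjusted p = 0.391), Becn1 of 0.08 (0.549), Atg14, the subunit of the autophagosomal form, of 0.11 (0.669), Ambra1 of 0.10 (0.767) and the regulatory kinase Pik3r4 of 0.03 (0.916).

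Of the lipid transfer and PI3P-binding group, Wipi1 and Atg2a rose and their paralogs did not pass the test. Wipi1, which binds PI3P (chr11:109464156-109502793, minus strand), was at 37.4, 42.4 and 41.2 CPM in WT, 53 and 56.5 CPM in WT+R, 35.5, 48 and 37.3 CPM in KO and 51.9, 58.9 and 53.9 CPM in KO+R, with no overlap between treated and untreated cultures. It rose by 0.44 over both genotypes (SE 0.08, adjusted p = 0.00612). Atg2a, a lipid-transfer protein (chr19:6291698-6312365, plus strand), was at 55.2, 53.5 and 66.1 CPM in WT, 81.9 and 70.8 CPM in WT+R, 59.8, 58 and 67.9 CPM in KO and 78.6, 77.9 and 91.2 CPM in KO+R. Again all treated libraries were the higher ones, and Atg2a rose by 0.40 (SE 0.09, adjusted p = 0.0127). Wipi2, Atg2b and the lipid scramblase Atg9a had log2 fold changes of 0.05, 0.02 and -0.02 (adjusted p = 0.708, 0.946 and 0.905). The difference between paralogs was not tested.

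Conjugation enzymes gave 0 calls of 10 without the block. With it, Atg7, the E1-like enzyme of both conjugation systems, rose by 0.23 (adjusted p = 0.032, 0.133 without), and it was not called when WT replicate 1 was also left out (0.23, adjusted p = 0.0646). Atg4a, a protease that trims LC3-family proteins, was at 20, 30.4 and 29.6 CPM in WT, 13.7 and 20.5 CPM in WT+R, 25, 31.4 and 30.5 CPM in KO and 16.1, 25.9 and 20.4 CPM in KO+R. Replicate 1 was lowest in each of these groups, so treated and untreated levels overlapped, while all 5 same-number differences lay between -0.63 and -0.28. Atg4a fell by 0.53 with the block (SE 0.09, adjusted p = 0.00292, 0.103 without), with reads that may be shared with Atg4a-ps. Atg3, Atg4b, Atg4c, Atg4d, Atg5, Atg10, Atg12 and Atg16l1 had log2 fold changes from -0.20 to 0.17 and were called in neither fit.

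All 5 LC3 and GABARAP genes had positive log2 fold changes, and 1 was called without the block. Map1lc3a, which encodes LC3A (chr2:155118217-155119998, plus strand), was at 72.8, 64.4 and 50.1 CPM in WT, 97.7 and 101 CPM in WT+R, 77.9, 68.1 and 67.2 CPM in KO and 125, 101 and 101 CPM in KO+R. Every treated culture was above every untreated one. Over both genotypes Map1lc3a rose by 0.64 (SE 0.10, 95% interval 0.42 to 0.86, adjusted p = 0.00235), a 1.56-fold rise. Map1lc3b, encoding the commonly used autophagosome marker LC3B, rose by 0.35 with the block (adjusted p = 0.0104, 0.121 without) and Gabarapl1 by 0.32 (0.00714 and 0.248). Replicate 1 was highest in all 4 groups for both genes, at 445 CPM in WT and 541 CPM in WT+R for Map1lc3b. Gabarapl2 had a log2 fold change of 0.25 (adjusted p = 0.128, 0.0546 with the block) and Gabarap of 0.10 (0.741).

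Among the cargo receptors, Calcoco1 and Tax1bp1 rose and 5 of 7 were not called. Calcoco1, a receptor for endoplasmic reticulum (chr15:102614354-102630631, minus strand), had the largest fold change of the 38 genes. It was at 106, 73.6 and 94.3 CPM in WT, 177 and 129 CPM in WT+R, 83.1, 64.1 and 75.1 CPM in KO and 154, 115 and 120 CPM in KO+R, without overlap between treated and untreated cultures. It rose by 0.77 over both genotypes (SE 0.13, 95% interval 0.50 to 1.05, adjusted p = 0.00286), a 1.71-fold rise. Tax1bp1, a receptor for ubiquitinated cargo (chr6:52690676-52745153, plus strand), was at 169, 147 and 155 CPM in WT, 221 and 194 CPM in WT+R, 154, 151 and 142 CPM in KO and 206, 192 and 197 CPM in KO+R. Groups again did not overlap, and Tax1bp1 rose by 0.41 (SE 0.07, adjusted p = 0.00294). Bnip3l had a log2 fold change of 0.34 (adjusted p = 0.0836), Bnip3 of 0.38 (0.437), Sqstm1 of 0.24 (0.712), Optn, a receptor phosphorylated by TBK1, of 0.18 (0.595) and Nbr1, a partner of p62, of 0.11 (0.497).

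**Figure D3:**
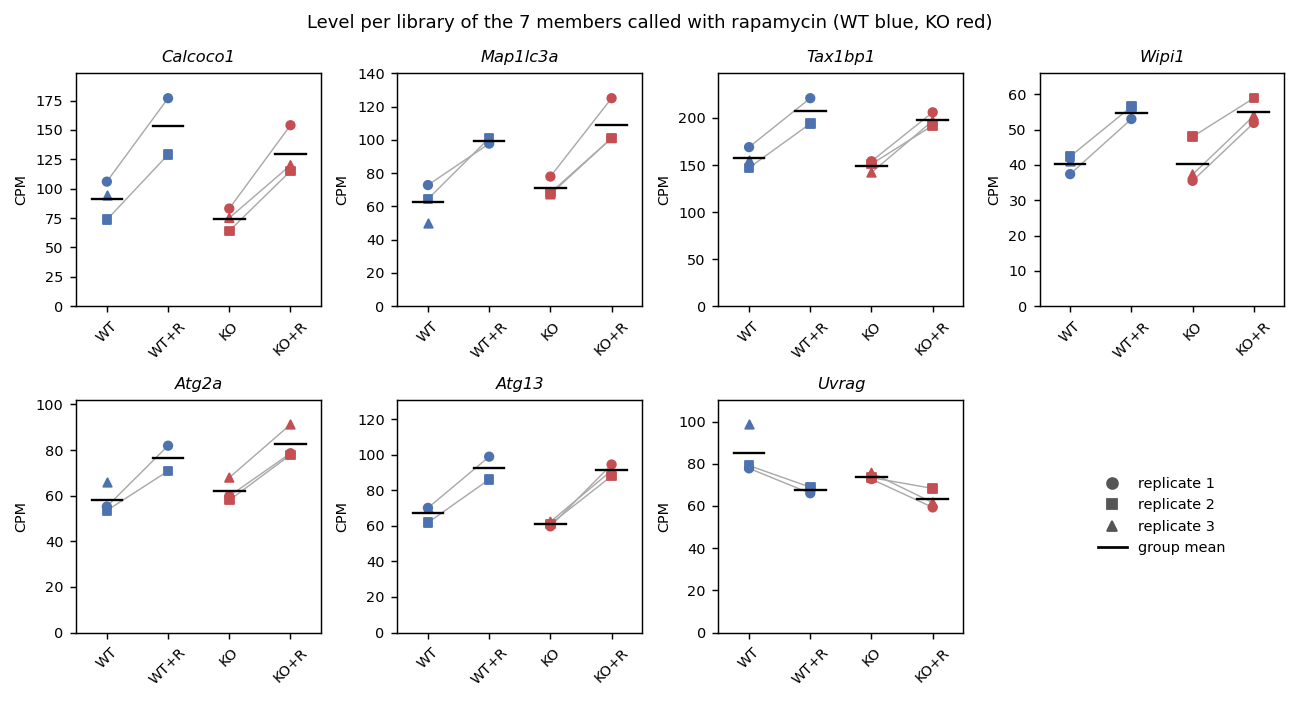
Levels in CPM of the 7 genes called with rapamycin over both genotypes in WT, WT+R, KO and KO+R, with 1 point per library joined by replicate number. Levels with rapamycin are above the untreated ones for 6 genes and below them for Uvrag, without overlap within either genotype.

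Within KO cultures alone, 3 members rose (7.89%), against 0.849% of all genes, and 0 fell, with 1.7% of all genes called. They were Calcoco1 by 0.81 (SE 0.17, adjusted p = 0.0358), Tax1bp1 by 0.41 (SE 0.09, adjusted p = 0.04) and Map1lc3a by 0.62 (SE 0.14, adjusted p = 0.0426). With the block 9 were called (23.7%), against 6.94% of all genes, 8 of them higher (3.17% of all genes) and 1 lower (3.77%): these 3, with Wipi1 at 0.45 (adjusted p = 0.0121), Atg2a at 0.41 (0.0135), Gabarapl1 at 0.41 (0.0201), Atg13 at 0.58 (0.0328), Map1lc3b at 0.38 (0.0497) and Atg4a at -0.50 (0.035). Levels of KO+R and KO did not overlap for 10 genes that were higher (10.9% of all genes) and 1 that was lower (13.2% of all genes). The 3 calls without the block did not hold in every subset, while the log2 fold changes stayed between 0.69 and 0.91 for Calcoco1, 0.38 and 0.46 for Tax1bp1 and 0.53 and 0.69 for Map1lc3a as each library was left out in turn. Leaving out KO replicate 1, KO replicate 3 or any KO+R library left 0 calls, leaving out KO replicate 2 left Wipi1 alone, and leaving out KO+P replicate 2, which adds to the estimate of the spread, left Calcoco1 alone. In further subsets Map1lc3a lost its call while Calcoco1 and Tax1bp1 kept theirs. Blocked and without WT replicate 1, 8 of the 9 were called, and Map1lc3b was not (0.39, adjusted p = 0.053).

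Within WT cultures 0 members were called, against 1.48% of all genes. At an unadjusted p under 0.05 there were 13 members and 1877 of all 14838 genes. With the block 7 were called (18.4%), against 5.78% of all genes, 6 of them higher (2.97% of all genes) and 1 lower (2.82%). Calcoco1 rose by 0.76 (adjusted p = 0.00384, 0.0737 without the block), Map1lc3a by 0.60 (0.00693 and 0.0502), Atg2a by 0.46 (0.0165 and 0.177), Tax1bp1 by 0.39 (0.0195 and 0.0658), Wipi1 by 0.43 (0.0309 and 0.104) and Ulk1 by 0.53 (0.0496 and 0.307), and Atg4a fell by 0.57 (0.0412 and 0.386). Levels did not overlap for 13 genes that were higher, against 14% of all genes, and 2 that were lower, against 14.7%. Without WT replicate 1, 1 gene was called without the block, Map1lc3a at 0.79 (adjusted p = 0.0475), and 2 with it, Map1lc3a at 0.67 (0.0165) and Calcoco1 at 0.81 (0.0138). The other 5 were then at 0.62 for Ulk1 (adjusted p = 0.07), 0.46 for Atg2a (0.0679), 0.42 for Tax1bp1 (0.0533), 0.40 for Wipi1 (0.115) and -0.60 for Atg4a (0.0871).

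The effect of rapamycin was not shown to differ between genotypes for any member. The test of the difference itself called 0 of 38 members and 0% of all genes in edgeR, with 113 genes and 0 members at an unadjusted p under 0.05. The difference in log2 fold change, KO minus WT, was 0.07 for Calcoco1 (SE 0.26), -0.05 for Map1lc3a (SE 0.21), 0.01 for Tax1bp1 (SE 0.14), 0.01 for Wipi1 (SE 0.17) and 0.02 for Atg2a (SE 0.17). The largest were 0.23 for Atg5 (95% interval -0.16 to 0.62), -0.22 for Optn (-0.96 to 0.52), 0.22 for Bnip3 (-0.92 to 1.35), -0.20 for Rb1cc1 (-0.60 to 0.19) and -0.19 for Ulk1 (-0.71 to 0.33), and such widths do not show that the genotypes responded alike. Without WT replicate 1 the calls over both genotypes were 9, the 7 above with Atg101 (0.36, adjusted p = 0.0262) and Bnip3l. Blocked and without it they were 14, the 15 blocked calls without Rb1cc1 and Atg7 and with Bnip3l.

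With propranolol, Sqstm1 had the largest fold change of the 38 genes, and its size differed between cultures. Sqstm1 (chr11:50089572-50107684, minus strand) was at 1398, 1204 and 1764 CPM in WT, 5197 and 1630 CPM in WT+P, 1444, 1404 and 1699 CPM in KO and 6647, 3649 and 2061 CPM in KO+P. The replicate 1 culture was far above the rest in both treated groups, levels of KO+P and KO did not overlap, and WT+P replicate 2 lay within the WT range. Over both genotypes Sqstm1 rose by 1.34 (SE 0.31, 95% interval 0.67 to 2.00, adjusted p = 0.0483), a 2.52-fold rise, and it was the only member called (2.63%), against 1.83% of all genes, of which 1.62% were higher. The fold was 1.44 in KO (adjusted p = 0.287) and 1.23 in WT (0.467), and 0 members were called in either genotype, against 0.00674% of all genes in each. With the block this was 0 members again, against 0.142% of all genes in KO and 0.0809% in WT. At an unadjusted p under 0.05 there were 6 members and 1870 of all 14838 genes in KO, and 5 members and 1464 of all genes in WT.

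The Sqstm1 call was fragile. Leaving out 1 library at a time, the fold ranged from 0.80 to 1.64 and passed the test in 2 of 16 cases, without WT+P replicate 2 (adjusted p = 0.00462) or without KO+P replicate 3 (0.00996), the cultures with the smallest rises. Without WT+P replicate 1 it was 0.80 (adjusted p = 0.423), and without WT replicate 1 it was 1.32 (0.119). In WT alone, blocked and without WT replicate 1, it was 0.81 (adjusted p = 0.769).

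With the replicate block 5 members rose (13.2%), against 4.73% of all genes, and 0 fell, with 7.26% of all genes called. They were Sqstm1 by 1.22 (adjusted p = 0.0368), Optn by 0.54 (0.0475, 0.0806 without the block), Atg13 by 0.45 (0.0395 and 0.0738), Wipi1 by 0.28 (0.0389 and 0.0894) and Atg7 by 0.28 (0.0385 and 0.094). None of these 5 was called without WT replicate 1. Optn was at 36.3, 32.1 and 30.6 CPM in WT, 73.2 and 34.4 CPM in WT+P, 37.9, 41.4 and 37.7 CPM in KO and 65.1, 54.5 and 46.4 CPM in KO+P. Atg13 was at 117 and 70.1 CPM in WT+P and at 104, 81.7 and 69.5 CPM in KO+P. For both genes replicate 1 was again the highest of its treated group, and KO+P was above KO in all 3 cultures.

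**Figure D4:**
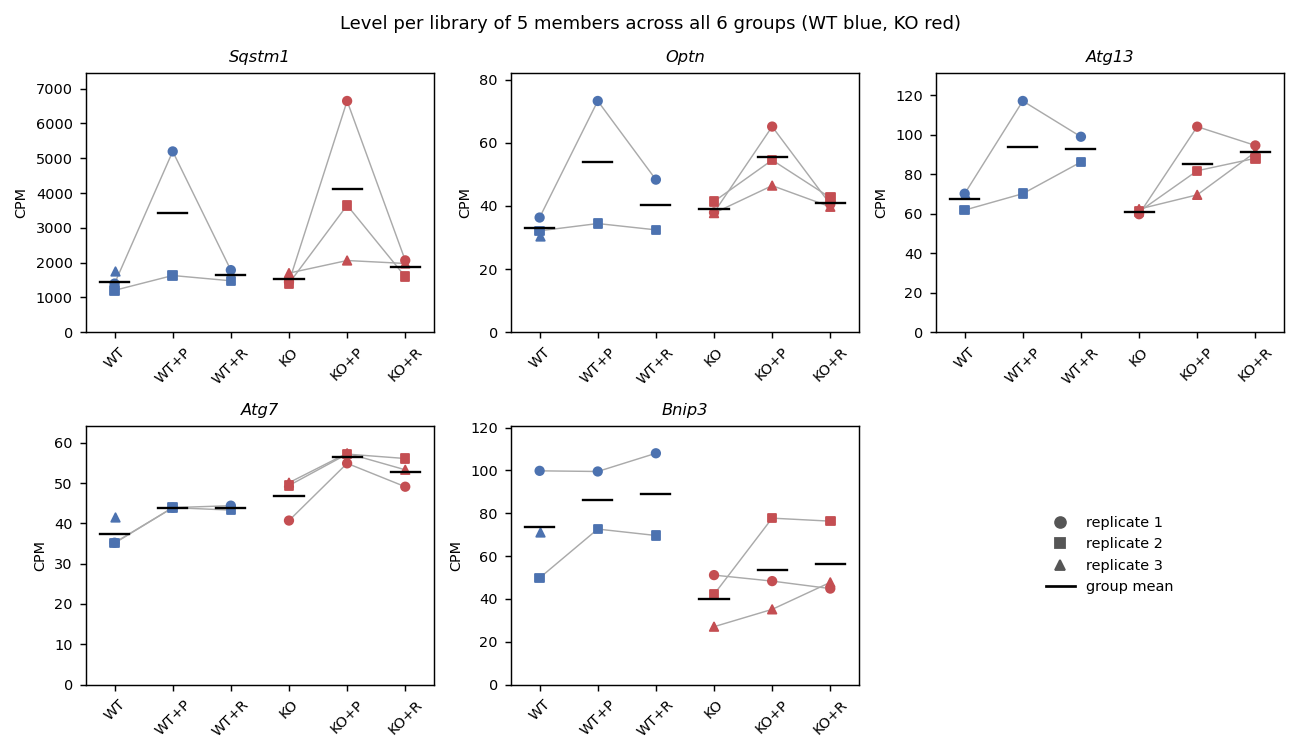
Levels in CPM of Sqstm1, Optn, Atg13, Atg7 and Bnip3 in the 6 groups, with 1 point per library. Sqstm1 reaches 5197 CPM in WT+P replicate 1 and 6647 CPM in KO+P replicate 1, against at most 1764 CPM in untreated cultures.

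Most other members moved little with propranolol. The median log2 fold change was 0.07 (27 of 38 above 0), against a median of -0.00 over all genes. In all 5 same-number pairs 11 genes were higher (28.9%), against 14.6% of all genes, and 2 were lower (5.26%), against 15.4%, namely Atg4a and Bnip3l. Bnip3l had a fold of -0.36 (adjusted p = 0.0642, 0.109 with the block), at 118 and 155 CPM in WT+P and 116, 134 and 140 CPM in KO+P, against 154 to 218 CPM in WT and 147 to 176 CPM in KO. Levels of KO+P and KO did not overlap for 7 members that were higher (9.58% of all genes) and 1 that was lower (9.11%), and those of WT+P and WT for 4 that were higher (10.8%) and 0 that were lower (10.3%), in all 10.5% of the members and 21.2% of all genes. In KO, log2 fold changes without a call were 0.51 for Optn, 0.48 for Atg13, 0.42 for Bnip3 and 0.37 for Gabarapl1 (adjusted p = 0.39, 0.334, 0.626 and 0.477). In WT they were 0.71 for Optn, 0.48 for Atg13, -0.39 for Bnip3l and -0.35 for Atg4a (adjusted p = 0.453, 0.475, 0.486 and 0.721). The interaction with genotype called 0 members and 0% of all genes, with 107 genes and 0 members at an unadjusted p under 0.05.

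Targets of ATF4, the transcription factor of the integrated stress response, moved in the same cultures as Sqstm1. Of 20 such genes 15 rose over both genotypes (median log2 fold change 1.84), against 1.62% of all genes. Among them, Chac1 rose by 3.81 (adjusted p = 0.00341), Nupr1 by 2.58 (0.00341), Asns by 2.71 (0.00463) and Slc7a3 by 4.81 (0.0102). The median log2 difference of the 20 was 2.63 and 0.69 in WT replicates 1 and 2. In KO replicates 1 to 3 it was 2.76, 1.90 and 0.65. Sqstm1 differed by 1.89, 0.44, 2.20, 1.38 and 0.28 in these cultures. For the next 2 lists the same median is given per culture. For 12 NRF2 targets it was 0.98 and 0.16 in WT and 1.04, 0.57 and -0.03 in KO, and for the endothelial markers -0.93 and -0.04 in WT and -0.77, -0.31 and -0.24 in KO. Over the 38 members the median per culture was 0.02 to 0.09. Their part in the Sqstm1 result was not tested.

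**Figure D5:**
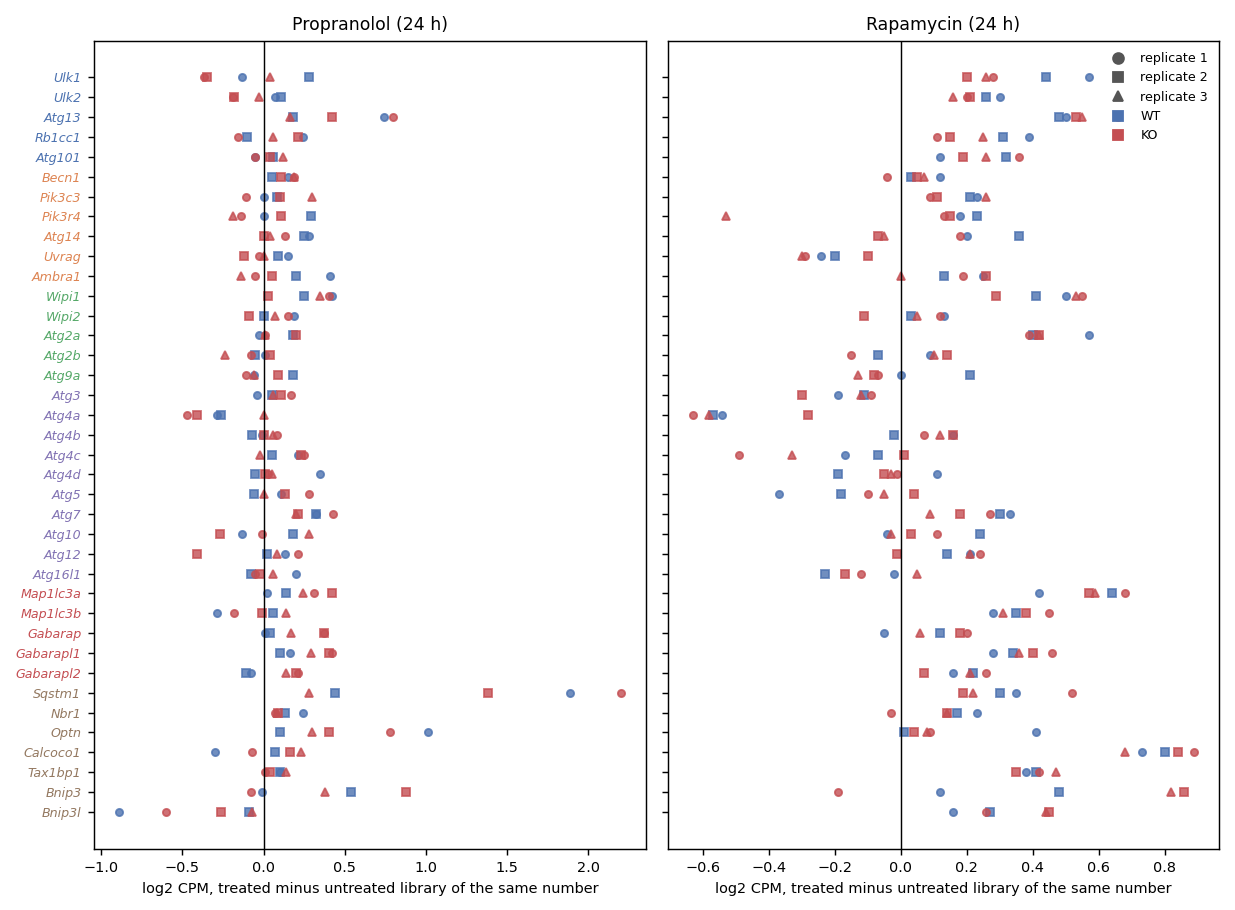
Log2 differences in CPM between the treated and the untreated culture of the same replicate number for all 38 genes, with propranolol and rapamycin in separate panels (5 pairs each). Rapamycin gives 19 genes that are higher in all pairs, propranolol 11, and the Sqstm1 difference with propranolol ranges from 0.28 to 2.20.

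Deletion of Pdcd10 gave 0 calls among the 38 genes in untreated cultures, against 0.00674% of all genes in edgeR, with 2 members and 900 genes at an unadjusted p under 0.05. With the block 0 members were called, against 0.202% of all genes. Pdcd10 itself was not called in untreated cultures in either fit, so these 0 calls do not show that the members were unchanged. Over all treatments Pdcd10 had a log2 fold change of -1.82 (adjusted p = 0.00406). The median log2 fold change, KO over WT, was -0.03, against -0.01 over all genes, and levels of KO and WT did not overlap for 5 members (13.2%), against 13.2% of all genes, 2 of them higher (6.69% of all genes) and 3 lower (6.5%). The largest difference was that of Bnip3, a mitophagy receptor induced by hypoxia (chr7:138490690-138511253, minus strand), at 99.8, 49.8 and 71.2 CPM in WT and 51.1, 42.1 and 27 CPM in KO. Every KO culture was below the WT culture of its number, by -0.97, -0.24 and -1.40 on the log2 scale, but KO replicate 1 was above WT replicate 2. The fold was -0.88 (SE 0.35, adjusted p = 0.726), and -0.60 (adjusted p = 1) without WT replicate 1. Atg7 had a log2 fold change of 0.32 (adjusted p = 0.538), Calcoco1 of -0.30 (0.941), Gabarapl1 of -0.29 (0.996) and Optn of 0.24 (0.996). Without WT replicate 1 these were 0.27, -0.19, -0.19 and 0.30, and none was called.

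Over all treatments, Atg7 was the 1 member called between genotypes (2.63%), against 2.67% of all genes, of which 1.42% were higher. With a fold above 1.5 required, 0 members and 1.76% of all genes were called. Atg7 (chr6:114620044-114837576, plus strand) was at 35.2, 35.1 and 41.7 CPM in WT, 43.9 and 43.9 CPM in WT+P and 44.4 and 43.3 CPM in WT+R. In KO it was at 40.7, 49.4 and 50.1 CPM, in KO+P at 54.9, 57.2 and 57.4 CPM and in KO+R at 49.1, 56.1 and 53.3 CPM. Each KO group lay above its WT counterpart apart from KO replicate 1, which was below WT replicate 3. Atg7 was 0.32 higher in KO (SE 0.06, adjusted p = 0.0221), and 0.31 higher (adjusted p = 0.0401) without WT replicate 1. With the block 3 members were called (7.89%), against 9.69% of all genes (4.58% higher and 5.11% lower), as Map1lc3a was 0.26 higher in KO (adjusted p = 0.0189, 0.236 without) and Uvrag had a log2 fold change of -0.21 (0.0402 and 0.145). Bnip3 had a log2 fold change of -0.74 (adjusted p = 0.092, 0.0629 with the block), and Ambra1 of -0.27 (0.311 and 0.0627).

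Bnip3 is induced by hypoxia, and 18 other hypoxia-inducible genes were read beside it. Of these 6 were lower in KO over all treatments (median -0.59), against 1.25% of all genes. Among them were Pfkfb3 at -1.06 (adjusted p = 0.00406), P4ha1 at -0.64 (0.00896), Egln3 at -1.63 (0.0119) and Eno1 at -0.67 (0.0289). In untreated cultures the median of the 18 was -0.60 with 0 called. Their part in the Bnip3 values was not tested.

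Other genes of the pathway, from lists that do not hold the 38, were read in the same fits. With rapamycin, of 37 further autophagy genes tested, 3 rose and 2 fell over both genotypes (median 0.04), against 4.04 and 4.18% of all genes. Wdr45, a PI3P-binding relative of the WIPI proteins, rose by 0.56 (adjusted p = 0.00239), the mitophagy kinase Pink1 by 0.69 (0.00472) and Ccpg1, a receptor for endoplasmic reticulum, by 0.56 (0.00556), whereas Tecpr1, which links autophagosomes to lysosomes, fell by 0.37 (0.0378). Of 28 lysosomal and v-ATPase genes 2 rose and 1 fell (median 0.10), against the same shares of all genes. The hydrolase genes Gaa and Naglu rose by 0.30 (adjusted p = 0.0428) and 0.34 (0.049), and Atp6v1a, the catalytic subunit of the proton pump, fell by 0.58 (0.0039). With the block the lysosomal counts were 7 higher and 2 lower, against 8.76 and 10.1% of all genes.

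Of 13 regulators of autophagy genes 1 was called with rapamycin, against 8.22% of all genes. It was Tfec, which fell by 1.03 (adjusted p = 0.0453). Tfeb, Tfe3 and Foxo3, transcription factors that induce autophagy genes, had log2 fold changes of -0.24, 0.13 and 0.10 (adjusted p = 0.471, 0.608 and 0.761). Of the 20 ATF4 targets 5 fell with rapamycin (median -0.51), among them Vldlr by 1.74 (adjusted p = 0.00145), Slc7a5 by 1.67 (0.0023), Ddit4 by 1.03 (0.00622) and Stc2, which fell by 1.94 (0.0186). Of 12 NRF2 targets, Hmox1, a heme oxygenase, fell by 1.35 (adjusted p = 0.0489), and among the microglia markers, which summed to at most 2.22 CPM, Csf1r fell by 2.25 (0.0461). Of the 12 endothelial markers Emcn rose by 0.57 (adjusted p = 0.0273), and Egfl7 and Cdh5 fell by 0.55 (0.0285) and 0.44 (0.0423). Beside them stand the 8.22% of all genes called.

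With propranolol 2 of the 37 further autophagy genes rose (median 0.07), against 1.62% of all genes. They were Tmem41b, a lipid scramblase, by 0.79 (adjusted p = 0.0405) and Retreg1, a receptor for endoplasmic reticulum, by 1.15 (0.0468). No lysosomal gene of 28 was called in edgeR without the block (median -0.06), and 2 were with it, against 1.83 and 7.26% of all genes. Of the 13 regulators Atf4 rose by 1.52 (adjusted p = 0.0183) and Ddit3 by 2.22 (0.0208). Of the 18 hypoxia-inducible genes Vegfa rose by 1.54 (adjusted p = 0.0471), while most of that list went the other way. The median of the 18 was -0.36 in KO+P against KO (3 above 0) and -0.30 in WT+P against WT (6 above 0). Of the 12 NRF2 targets, Slc7a11, which is also in the ATF4 list, rose by 2.51 (adjusted p = 0.037). Between genotypes over all treatments, Snap29, a SNARE of autophagosome fusion, was 0.43 higher in KO (adjusted p = 0.0289), Tecpr1 was 0.37 higher (0.033) and Stbd1, a glycogen-binding protein, was at -1.71 (0.0325). Neu1, a lysosomal hydrolase, was 0.37 higher (adjusted p = 0.0233), and Nqo1, an NRF2 target, was 1.93 higher (0.0123). These are single genes of their lists, and 2.67% of all genes were called in this comparison. In untreated cultures the median, KO over WT, was 0.13 for the 12 NRF2 targets and 0.08 for the 28 lysosomal genes, with 0 called.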

How the data were processed

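The authors deposited, for each library, Salmon output with expected counts, TPM values and effective lengths of transcripts. The submitters' processing notes name Trim Galore 0.6.7, STAR (listed with the same version as Trim Galore), Salmon 1.5.2, HTSeq 0.13.5, DESeq2 1.34.0, R 4.2.2 and the build GRCm39. The study's methods describe STAR and HTSeq and do not name Salmon. The settings of Salmon are not given in the sources used here. The deposited expected counts are not normalized between libraries. Effective lengths as deposited entered no test. Transcripts (140789 in every library) were named with the GENCODE annotation of GRCm39, 139544 of them (99.12%), holding 99.43 to 99.61% of the counts, and 0 columns lacked a sample. Counts and the authors' TPM were summed per gene, and counts were rounded.

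Of 27228 genes with any count, filterByExpr kept 14838. All 16 libraries were fitted in 1 quasi-likelihood model (edgeR 4.0.16 in R 4.3.3, TMM, 10 residual degrees of freedom, biological coefficient of variation 32.3%), with contrasts as comparisons. CPM use TMM. The second fit adds the replicate number as a block (8 degrees of freedom, 19.0%). The labels do not say that numbers pair the cultures. Same-number libraries deviated together from their group means, with r from 0.19 to 0.62 in KO vs WT (3 pairs), from 0.31 to 0.58 in KO+P vs KO (3), from 0.41 to 0.62 in KO+R vs KO (3), from 0.49 to 0.56 in WT+P vs WT (2) and from 0.60 to 0.69 in WT+R vs WT (2), and the numbers were taken to pair them. Between all groups, r was 0.0323 to 0.693 (median 0.519) for 36 same-number pairs. For 70 pairs of different number it was -0.693 to 0.395 (median -0.23), so the ranges overlapped. Centring on group means by itself lowers r between different numbers, and in groups of 2 libraries the deviations mirror each other. These values are thus no independent reference for the same-number pairs. Contrasts over both genotypes, or over all treatments, are means of the contrasts within each. The fit was tested on simulated data. Alternatives were DESeq2 1.42.0, RLE size factors, no filter on low counts, a required fold above 1.5, only the groups compared and leaving out libraries.

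The 38 members, the other gene lists and the tests were chosen with earlier results of these data known. Named members were those called in either fit, filled up to 5 per comparison with the largest fold changes among members with a mean of at least 1 CPM. Genes of other lists are named where called without the block over both genotypes or all treatments, at most 4 per list and comparison by smallest p, and Tfeb, Tfe3 and Foxo3 were added after their values were seen. A gene of these other lists is not reported here. Promoters, motifs and exon overlaps were read from the GRCm39 genome and GENCODE, and similar transcripts were found with minimap2 2.31. Protein sequences and the promoters of another build were not used here.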

Additional observations from a re-analysis of the deposited data

How the results depend on the processing

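Counts of members called are given here, against 0 (KO vs WT), 0 (KO+P), 3 (KO+R), 0 (WT+P), 0 (WT+R), 7 (rapamycin over both genotypes), 1 (propranolol over both) and 1 (genotype over all treatments) as reported. With the replicate block the pairing gave 9 for KO+R, 7 for WT+R, 15 for rapamycin, 5 for propranolol and 3 for genotype, and changed no other call. Blocked and without WT replicate 1, counts were 8 for KO+R, 2 for WT+R, 14 for rapamycin, 0 for propranolol and 3 for genotype. DESeq2 gave 1 for KO+P (Sqstm1), 6 for KO+R, 4 for WT+R, 6 for propranolol and 2 for genotype (Atg7 and Bnip3), and with the block 2 for KO vs WT (Atg7 and Gabarapl1), 5 for KO+P, 9 for KO+R, 8 for WT+R, 17 for rapamycin, 10 for propranolol and 8 for genotype. DESeq2's size factors in edgeR gave 1 for WT+R, no filter gave 2 for propranolol, fitting only the compared groups gave 0 for propranolol, and a required fold above 1.5 left 2 for rapamycin (Map1lc3a and Calcoco1) and 0 for genotype. The cause was not tested. Shares of all genes called under DESeq2 or with libraries left out are not given here. Counts from those fits thus do not show whether members were called more often than other genes.

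Leaving out 1 library at a time, counts were 0 to 3 for KO+R (0 without KO replicate 1 or 3 or any KO+R library), 0 to 1 for KO+P (1 without KO+P replicate 3), 0 to 3 for WT+P (3 without WT+P replicate 2, namely Atg13, Sqstm1 and Optn), 0 to 1 for WT+R (Map1lc3a, without WT replicate 1, KO+P replicate 3 or KO+R replicate 1), 4 to 9 for rapamycin (4 without WT+R replicate 1: Wipi1, Map1lc3a, Calcoco1 and Tax1bp1), 0 to 4 for propranolol (4 without WT+P replicate 2, 3 without KO+P replicate 3, and 0 without any WT library, WT+P replicate 1, any WT+R or KO+R library, KO replicate 1 or 3, or KO+P replicate 1 or 2) and 0 to 1 for genotype (0 without WT+P replicate 1, either WT+R library, KO replicate 3 or KO+R replicate 3). A group left with 1 library was assumed to vary like the others. Differences by genotype turned sign there for 4 genes that were not called, ranging from -0.05 to 0.58 for Bnip3, -0.47 to 0.11 for Optn and -0.34 to 0.01 for Ulk1 with rapamycin, and from -0.53 to 0.16 for Ambra1 with propranolol. Of the 23 other fits for rapamycin, the fold requirement aside, Wipi1, Map1lc3a, Calcoco1 and Tax1bp1 had an adjusted p under 0.05 in all 23, Atg2a in 22, Atg13 in 16 and Uvrag in 14, and Sqstm1 with propranolol in 7. The biological coefficient of variation was 32.3% and a group held 2 or 3 cultures.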
